A study of Tachycineta bicolor with 30 samples.

Results

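Chromosome ends are protected by 2 protein complexes and extended by an enzyme, and the transcripts of 10 genes from these 3 sets were followed through the brains of breeding female tree swallows (*Tachycineta bicolor*). Members were chosen by the titles of protein matches and by mean level: the title of a transcript's closest protein match had to speak of a CST complex subunit, a telomeric repeat-binding factor, protection of telomeres, telomerase reverse transcriptase, adrenocortical dysplasia or a TERF1-interacting protein. Of 19478 transcripts, 15 carried such a title, and where several shared 1 title, isoform suffix aside, the transcript with the highest mean over the 27 libraries stood for the gene. Mean normalized count over all libraries therefore chose the transcript of a gene, and no difference between groups entered the rule. The set of genes itself was chosen with earlier results of these data known. The 10 genes were CTC1, STN1 and TEN1 of the CST complex; TERF1, TERF2, TERF2IP, POT1 and a second match named POT1-like of shelterin; and TERT and PINX1 on the side of telomerase. PINX1, an inhibitor of telomerase, entered through the words TERF1-interacting in its title. No transcript had a title with adrenocortical dysplasia, so the shelterin protein ACD had no member. The words TERF1-interacting found only PINX1, and the shelterin protein TINF2 had no member either.

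Adult, free-living, untreated females were caught at nest boxes in 1 of 2 breeding stages, incubation (INC, 5 females with a completed clutch) or territory establishment (TE, 4 females that were competing for boxes and had not laid). The ventromedial telencephalon (VmT), a strip of the caudal telencephalon where nucleus taeniae lies in other songbirds, the hypothalamus (HYPO) and the hindbrain (HB) were dissected from each brain, 1 library per female and region. The labels of a single VmT library of TE name 2 females, both of TE. Its female could not be settled, hence the name unresolved VmT library. Of those numbers, 1 is that of a further TE female. The study left this female out after low RNA integrity in its HB and HYPO and a strong deviation from the other samples.

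Shelterin sits on the double-stranded telomeric repeat through TERF1 and TERF2 and covers the single-stranded overhang through POT1. The CST complex, also a binder of single-stranded DNA, brings DNA polymerase alpha-primase to the telomere to fill in the C-rich strand and also helps replication restart elsewhere in the genome. Telomerase, whose catalytic subunit is TERT, adds the repeats. In most adult neurons, which no longer divide, TERT is usually scarce, whereas the binding proteins remain part of every chromosome end. These roles are known mainly from mammals, and much of what is known of CST from human and yeast cells.

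Values are reads per transcript after division by a size factor of the library, called normalized counts here. Transcript length is not taken into account, so levels are compared between libraries and never between genes. Reads recovered from the deposited values ranged between 6001315 and 13710385 per library, with a median of 8308433. The paper gives a higher number of mapped read pairs per sample, and the gap was not examined. Of the region markers, fixed as lists, some followed the labels. TBR1, a transcription factor of the telencephalon, averaged 118 normalized counts in the VmT, 21.1 in the HYPO and 1.49 in the HB. HOXA3 of the hindbrain averaged 0, 1.08 and 512, and NPVF, a hypothalamic peptide, averaged 46.7, 653 and 10.8. LHX6 of the hypothalamus list did not, at 1119, 222 and 39.9. Single libraries also departed from their label. In INC female 85899 the mean log2 value of the hypothalamus list was 5.84 in the VmT and 4.83 in the HYPO. In TE female 85674 that of the telencephalon list was 7.41 in the HYPO, within the VmT range of 7.26 to 8.04. Their part in the differences below was not tested. VmT libraries differed in markers of the thalamus and midbrain, which lie behind the telencephalon: the mean log2 value of 18 such genes was 5.67 to 6.13 in the 5 INC libraries, against 4.18, 3.40, 5.51 and 5.76 (the unresolved library) in the 4 TE libraries. Their summed level was 2154 to 3130 normalized counts in INC and 691 to 2462 in TE, and 0 to 1 of the 18 were at 0 in INC libraries and 1 to 4 in TE libraries. The summed level of 5 neuron markers in the VmT was also higher in INC, at 6824 to 8079 normalized counts, against 5234 to 6222 in TE, while their mean log2 value overlapped (9.53 to 9.97 in INC, 9.30 to 9.65 in TE). For 3 markers of blood vessels the mean log2 value was 6.40 to 6.71 in INC and 5.84 to 6.26 in TE without overlap, and the summed level, at 354 to 511 in INC and 287 to 379 in TE, overlapped. None of these neuron and vessel markers was at 0 in a VmT library. In such bulk tissue, fewer cells of a type and less RNA per cell cannot be told apart.

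CTC1, the large scaffold subunit of CST (transcript OXPHG447044), was the only member called between stages. It had 642, 624, 587, 566 and 575 normalized counts in the VmT of INC females, against 677, 812, 890 and 660 (the unresolved library) in the VmT of TE females. Every INC library lay below every TE library, as in 1.31% of all transcripts tested, and the spread was wider in TE. The means were 599 ± 32.6 in INC (SD, n = 5) and 760 ± 110 in TE (SD, n = 4).

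On the scale log2(normalized count + 1), CTC1 was down-regulated in the VmT during INC by a log2 difference of -0.33 (standard error 0.096, limma adjusted p = 0.0487). Adjusted p-values up to 0.05 define a differentially expressed gene (DEG), so this call was marginal, and it held in 15 of 44 alternative analyses, all 44 with a lower level in INC. Leaving out the VmT library of TE female 85689 or 85694 gave a log2 difference of -0.30 (adjusted p = 0.178) or -0.25 (adjusted p = 0.174), and leaving out that of INC female 85774, 85840, 85889 or 85899 gave an adjusted p of 0.0548, 0.0878, 0.109 or 0.0971. edgeR gave -0.36 (adjusted p = 0.0243) and DESeq2 -0.35 (adjusted p = 0.00745).

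The TE libraries with the lowest thalamus and midbrain score, of females 85674 and 85689, had 677 and 812 normalized counts of CTC1, and those with the highest score, of female 85694 and the unresolved library, had 890 and 660. Whether CTC1 followed the score among these few TE libraries was not tested. With the score in the model the log2 difference was -0.34 (limma adjusted p = 0.222). In a fit added once the data had been seen, without the VmT libraries of females 85674 and 85689, it was -0.36 (adjusted p = 0.182). Neither fit gave a call. The score itself differed between stages in the VmT, with a mean of 5.86 in INC and 4.71 in TE. The second fit kept only female 85694 and the unresolved library in the VmT of TE. Neither fit can therefore separate stage from score. What part the neuron and vessel markers have in the CTC1 difference was not tested.

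In the HYPO, CTC1 had 511, 506, 411, 443 and 530 normalized counts in INC females, against 498, 546, 489 and 597 in TE females. The ranges overlapped, with means of 480 ± 50.8 in INC (SD, n = 5) and 532 ± 49.9 in TE (SD, n = 4) and a log2 difference of -0.15 (standard error 0.096, limma adjusted p = 0.530, 95% confidence interval -0.35 to 0.05). In the HB it had 462, 464, 456, 522 and 465 normalized counts in INC females, against 470, 474, 545 and 541 in TE females, a log2 difference of -0.10 (limma adjusted p = 1). Whether the stage difference of CTC1 was larger in the VmT was tested directly: the log2 difference in the VmT minus that in the HYPO was -0.18 (standard error 0.14, limma adjusted p = 0.561), and minus that in the HB it was -0.24 (standard error 0.14, adjusted p = 0.734). The lower level of CTC1 during INC was thus not shown to be particular to the VmT.

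STN1, the CST subunit related to replication protein A, had 134, 64.7, 86.0, 70.6 and 93.4 normalized counts in the VmT of INC females, against 112, 112, 79.9 and 143 (the unresolved library) in TE females. Its means in the VmT were 89.6 ± 27.1 in INC (SD, n = 5) and 112 ± 25.7 in TE (SD, n = 4), so its log2 difference had the size of that of CTC1, -0.33, but a standard error of 0.23 (limma adjusted p = 0.544). Differences in the HYPO (0.28) and the HB (-0.13) did not pass the test either. A second STN1 transcript gave a log2 difference of 0.03 in the VmT (standard error 0.21), so the size depended on the transcript used. TEN1, the smallest subunit, averaged 50.4 ± 21.3 normalized counts in INC and 49.3 ± 6.07 in TE in the VmT (SD, n = 5 and 4), and its widest gap was in the HB, with 51.1 ± 5.37 in INC and 40.1 ± 7.74 in TE (log2 difference 0.36, standard error 0.24, adjusted p = 1). Thus 1 of the 3 CST subunits was a DEG between stages, in the VmT, where 3.53% of all 19473 transcripts tested were DEG in either direction and 0.426% were lower in INC.

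**Figure D1:**
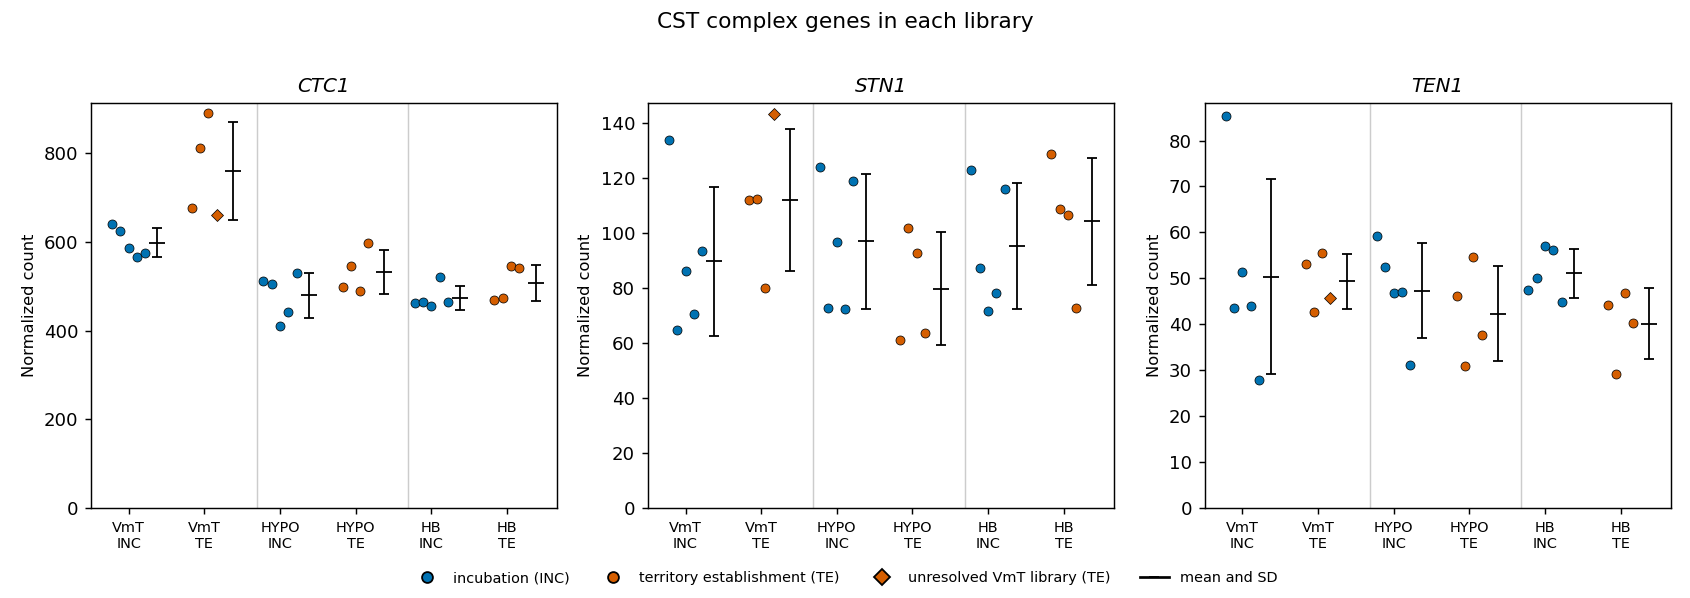
Normalized counts (vertical axes, starting at 0) of the CST genes CTC1, STN1 and TEN1 in each of the 27 libraries, by region and stage. Points are libraries, the diamond is the unresolved VmT library, and bars give the mean and SD. The 5 VmT values of CTC1 in INC (566 to 642) lie below the 4 in TE (660 to 890), whereas the stages overlap for STN1 and TEN1 in every region.

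Among the 5 shelterin transcripts none was a DEG between stages. TERF2, which folds the chromosome end into a protective loop in mammals, came closest (transcript OXPHG331068). It had 982, 752, 732, 752 and 707 normalized counts in the VmT of INC females, against 866, 884, 881 and 889 (the unresolved library) in TE females. The 4 TE libraries were within a narrow band, 4 of the 5 INC libraries were below it, and the library of INC female 85757 was above it. The log2 difference was -0.18 (standard error 0.086, limma adjusted p = 0.328). Without the VmT library of female 85757 it passed the threshold (adjusted p = 0.0424), and without all 3 libraries of that female, a fit added once the data had been seen, it was -0.26 (adjusted p = 0.0506). In the HYPO the log2 difference was -0.11 (adjusted p = 0.653) and in the HB 0.06 (adjusted p = 1).

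For TERF2IP (RAP1), which binds TERF2, means were 758 ± 87.9 normalized counts in INC and 723 ± 72.5 in TE in the VmT, 752 ± 45.3 in INC and 745 ± 34.9 in TE in the HYPO, and 801 ± 77.7 in INC and 755 ± 48.2 in TE in the HB (SD, n = 5 and 4). Between stages, log2 differences in the VmT, HYPO and HB were 0.07, 0.01 and 0.08, with 95% confidence intervals of -0.11 to 0.25, -0.17 to 0.20 and -0.10 to 0.26. Differences within those bounds could not be detected.

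POT1, the binder of the single-stranded overhang, spread widely between females. It averaged 107 ± 16.0 normalized counts in INC and 93.1 ± 23.7 in TE in the VmT, and 127 ± 23.7 in INC and 116 ± 51.2 in TE in the HYPO (SD, n = 5 and 4). In the HYPO of TE females the values were 173, 57.1, 141 and 91.9, a wide spread with the highest value in female 85674 and the lowest in female 85689. The same 2 females were highest and lowest of TE in the HB, at 160 and 95.7. Log2 differences between stages were 0.22, 0.23 and -0.0044 in the VmT, HYPO and HB (limma adjusted p of 0.736, 0.749 and 1). POT1-like, a partial match to the same protein, gave 0.28, 0.14 and 0.18 (adjusted p of 0.668, 0.875 and 1).

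Several transcripts matched POT1, and how reads shared between them were counted is not given in the sources used here. The POT1 transcript used here and the 3 others with that title had mean levels between 45.0 and 115 normalized counts. After removing group means, log2 values of the 3 others and POT1-like correlated with each other across the 27 libraries at r = 0.74 to 0.82, and with the POT1 transcript used here at r = 0.37 to 0.49. STN1 also had a second transcript (mean 79.8 normalized counts), which correlated with the first at r = 0.85, and CTC1 a second of 7.28 normalized counts, at r = 0.01. At 2 to 14 reads per library, this CTC1 transcript was higher in INC, unlike the first. Its log2 differences were 0.23, 0.60 and 0.41 in the VmT, HYPO and HB (standard error 0.39). None of these 5 further transcripts was a DEG between stages. Because reads can be split among them, values of POT1 and STN1 are less certain than those of TERF2 or TERF2IP, which had 1 transcript each.

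TERF1, the other direct binder of the double-stranded repeat, was barely detected. It had 0 to 8 reads per library and 47 reads in all 27, with 9 libraries at 0. In the HYPO the 5 INC libraries held 1, 1, 4, 0 and 5 reads, against 1, 0, 0 and 0 reads in the 4 TE libraries. The stages overlapped, the TE total of 1 read lies under the 3 counts that a count of 0 allows, and no fold is given (limma adjusted p = 0.375). At this depth a stage difference in TERF1 was not detectable.

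**Figure D2:**
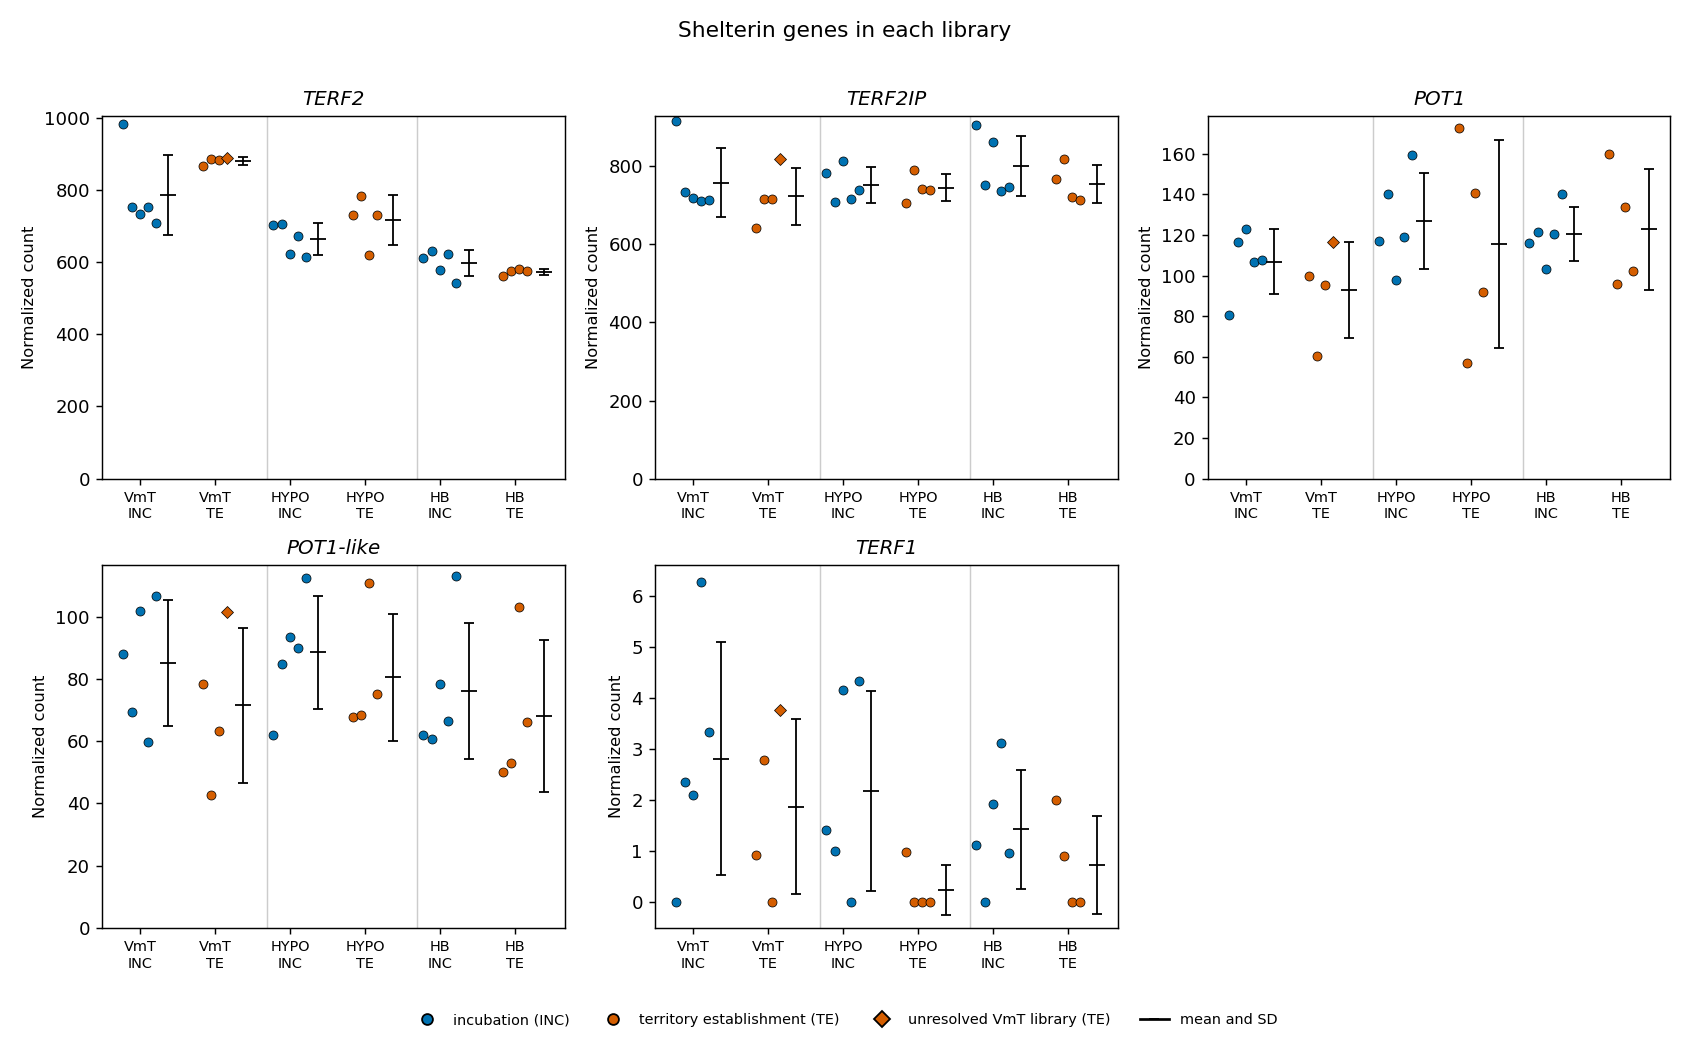
Normalized counts (vertical axes) of the shelterin genes TERF2, TERF2IP, POT1, POT1-like and TERF1 in each library, by region and stage, drawn as for the CST genes. TERF2 steps down over the regions, 827 on average in the VmT, 687 in the HYPO and 586 in the HB, TERF2IP averages 742 to 780, and TERF1 stays between 0 and 6.28 normalized counts.

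TERT, the catalytic subunit of telomerase, was detected in every library but at a low level, with 1 to 42 reads and a mean of 11.4 normalized counts. In the HYPO it had 1.41, 8.08, 6.24, 9.40 and 12.1 normalized counts in INC females (1, 8, 6, 9 and 14 reads), against 18.7, 12.6, 22.1 and 12.9 in TE females (19, 11, 17 and 10 reads). No INC value reached the lowest TE value, although the gap between 12.1 and 12.6 is less than 1 read. Means were 7.45 ± 4.0 in INC (SD, n = 5) and 16.6 ± 4.64 in TE (SD, n = 4), and the log2 difference was -1.22 (standard error 0.57, unadjusted p = 0.0418, limma adjusted p = 0.324). TERT was therefore not a DEG in the HYPO. In 3.74% of all transcripts tested the HYPO values of INC lay wholly below those of TE.

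Elsewhere TERT overlapped between stages. In the VmT it had 0.927, 10.6, 16.8, 14.9 and 7.78 normalized counts in INC females, against 13.1, 15.8, 2.92 and 26.3 (the unresolved library, 42 reads) in TE females, a log2 difference of -0.51 (standard error 0.57, limma adjusted p = 0.760). The HB gave 9.20 ± 4.03 normalized counts in INC (SD, n = 5) and 12.2 ± 5.17 in TE (SD, n = 4). Female 85757 had the lowest TERT of the 5 INC females in all 3 regions, with 1, 1 and 4 reads. PINX1, which inhibits telomerase in mammals, averaged 30.8 ± 10.3 normalized counts in INC and 35.0 ± 5.77 in TE in the VmT, 38.1 ± 11.3 in INC and 31.9 ± 3.65 in TE in the HYPO, and 31.99 ± 7.31 in INC and 36.2 ± 9.98 in TE in the HB (SD, n = 5 and 4), and none of the 3 differences passed the test.

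**Figure D3:**
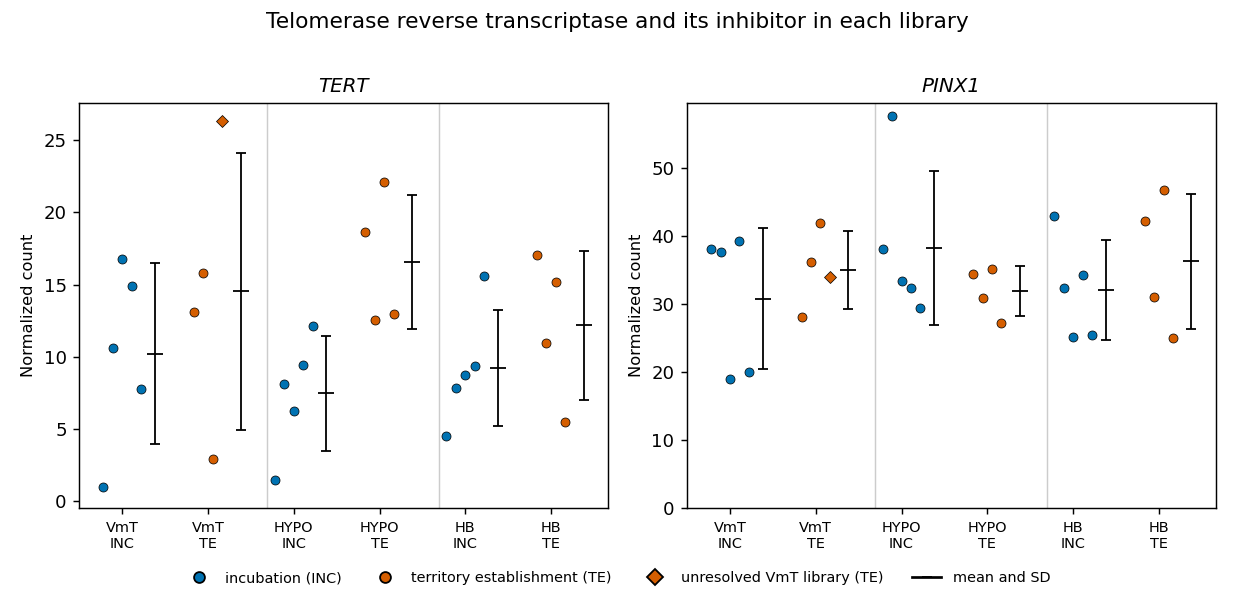
Normalized counts (vertical axes) of TERT and PINX1 in each library, by region and stage, drawn as for the CST genes. In the HYPO the 5 INC values of TERT (1.41 to 12.1) lie below the 4 TE values (12.6 to 22.1), and in the VmT and HB the stages overlap.

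Counted over the 10 genes, CTC1 was the 1 DEG between stages in the VmT, beside the backgrounds of 3.53% and 0.426%. In the HYPO 0 of the 10 were DEG by limma, edgeR or DESeq2, with 1 (TERT) at an unadjusted limma p under 0.05, beside a background of 0.514%. In the HB 0 were DEG by any of the 3 tools, with 0 at an unadjusted p under 0.05, beside 0.00514%. The median log2 difference of the 10 was -0.11 in the VmT, 0.15 in the HYPO and 0.03 in the HB, and over all transcripts it was -0.01, 0.01 and -0.01. No member's stage difference was called different between regions by limma, edgeR or DESeq2 (0 of 10 in each of the 3 pairs of regions, with 0 at an unadjusted limma p under 0.05), where 5.95% of all transcripts were called for the VmT against the HYPO, 0.437% for the VmT against the HB and 0% for the HYPO against the HB.

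**Figure D4:**
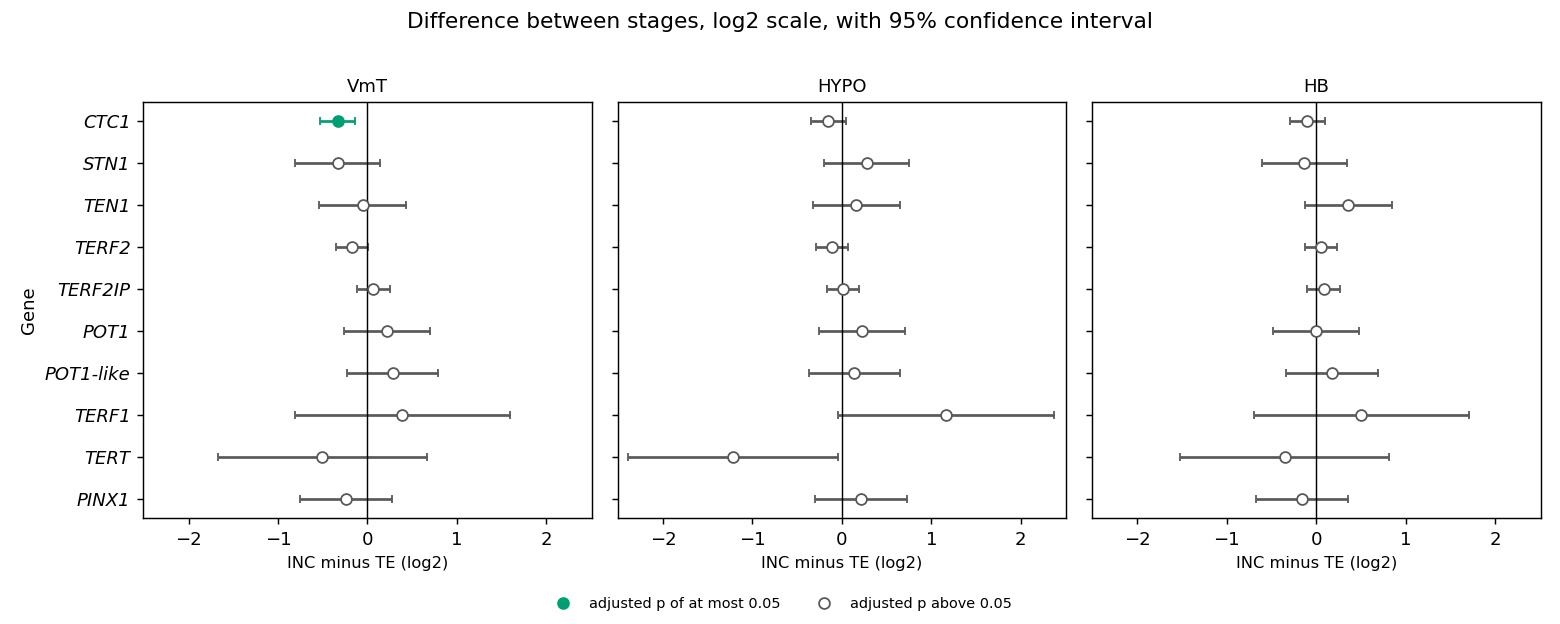
Log2 difference between stages, INC minus TE, of the 10 genes in the VmT, HYPO and HB (horizontal axes), with 95% confidence intervals from limma. Only CTC1 in the VmT has an adjusted p of at most 0.05 (-0.33, filled). The intervals of TERT and TERF1, the genes with the fewest reads, are the widest.

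CTC1 and TERF2 also differed between regions. Regions were compared over 9 libraries each, with the stages weighted equally, and most females gave all 3 regions. CTC1 averaged 670 ± 111 normalized counts in the VmT, 503 ± 54.6 in the HYPO and 489 ± 36.4 in the HB (SD, n = 9 each). It was higher in the VmT than in the HYPO by a log2 difference of 0.41 (standard error 0.068, limma adjusted p = 3.28e-05) and than in the HB by 0.46 (standard error 0.068, adjusted p = 3.36e-06). In all 8 females with a settled VmT library the VmT had more CTC1 than the HYPO (0.12 to 0.58 on the log2 scale) and more than the HB (0.12 to 0.78). All 9 VmT libraries (566 to 890, median 642) were above all 9 HB libraries (456 to 545, median 470), a separation shown by 9.94% of all transcripts, whereas HYPO libraries (411 to 597, median 506) overlapped with both. The HYPO and the HB did not differ beyond their spread (log2 difference 0.04, adjusted p = 0.774, 95% confidence interval -0.10 to 0.18).

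TERF2 was graded over the 3 regions. It averaged 827 ± 93.7 normalized counts in the VmT, 687 ± 59.1 in the HYPO and 586 ± 29.2 in the HB (SD, n = 9 each). The VmT exceeded the HYPO by 0.27 on the log2 scale (standard error 0.061, limma adjusted p = 0.00146) and the HB by 0.50 (standard error 0.061, adjusted p = 1.24e-07), and the HYPO exceeded the HB by 0.23 (adjusted p = 0.0105). Each of the 8 females had more TERF2 in the VmT than in the HYPO and than in the HB, and each of 9 had more in the HYPO than in the HB. The lowest VmT library, 707 normalized counts, was above the highest HB library, 631, a separation shown by 9.94% of all transcripts. With the score of the thalamus and midbrain in the model, the VmT minus HYPO difference was 0.24 (adjusted p = 0.130) and the HYPO minus HB difference 0.26 (adjusted p = 0.0848), both of like size but no longer called. Of the 18 genes of the score, 12 were themselves lower in the VmT than in the HYPO. Between the HYPO and the HB, 10 were higher and 1 lower in the HYPO. This fit therefore cannot separate region from score. Cell type markers differed between regions too. Summed levels of oligodendrocyte markers averaged 15173 normalized counts in INC and 13225 in TE in the VmT. They averaged 28417 and 30413 in the HYPO, and 41981 and 43395 in the HB. In the same order, astrocyte markers averaged 20256 and 19718, 24387 and 23654, and 26849 and 27280. Neuron markers averaged 7408 and 5788, 6291 and 7481, and 7753 and 7951. Their part in the CTC1 and TERF2 differences was not tested.

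The other 8 genes did not pass the test between any 2 regions. TERF2IP averaged 742 ± 78.6 normalized counts in the VmT, 749 ± 38.7 in the HYPO and 780 ± 66.9 in the HB (SD, n = 9 each), with log2 differences of -0.02, -0.07 and -0.05 for VmT minus HYPO, VmT minus HB and HYPO minus HB. POT1 averaged 101 ± 19.8 in the VmT, 122 ± 36.0 in the HYPO and 121 ± 20.48 in the HB, STN1 99.5 ± 27.4, 89.2 ± 23.2 and 99.1 ± 22.1, and TEN1 49.9 ± 15.5, 45.1 ± 10.0 and 46.2 ± 8.40. Of the low genes, TERT averaged 12.1 ± 7.72, 11.5 ± 6.26 and 10.5 ± 4.54 normalized counts and PINX1 32.6 ± 8.42, 35.4 ± 8.93 and 33.9 ± 8.31 in the same order. Between the VmT and the HYPO 2 of the 10 genes were called (both higher in the VmT), beside 25.9% of all transcripts in either direction and 11.7% higher. Between the VmT and the HB 2 were called, beside 43.4% in either direction and 17.6% higher, and between the HYPO and the HB 1, beside 12.4% in either direction and 5.33% higher.

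**Figure D5:**
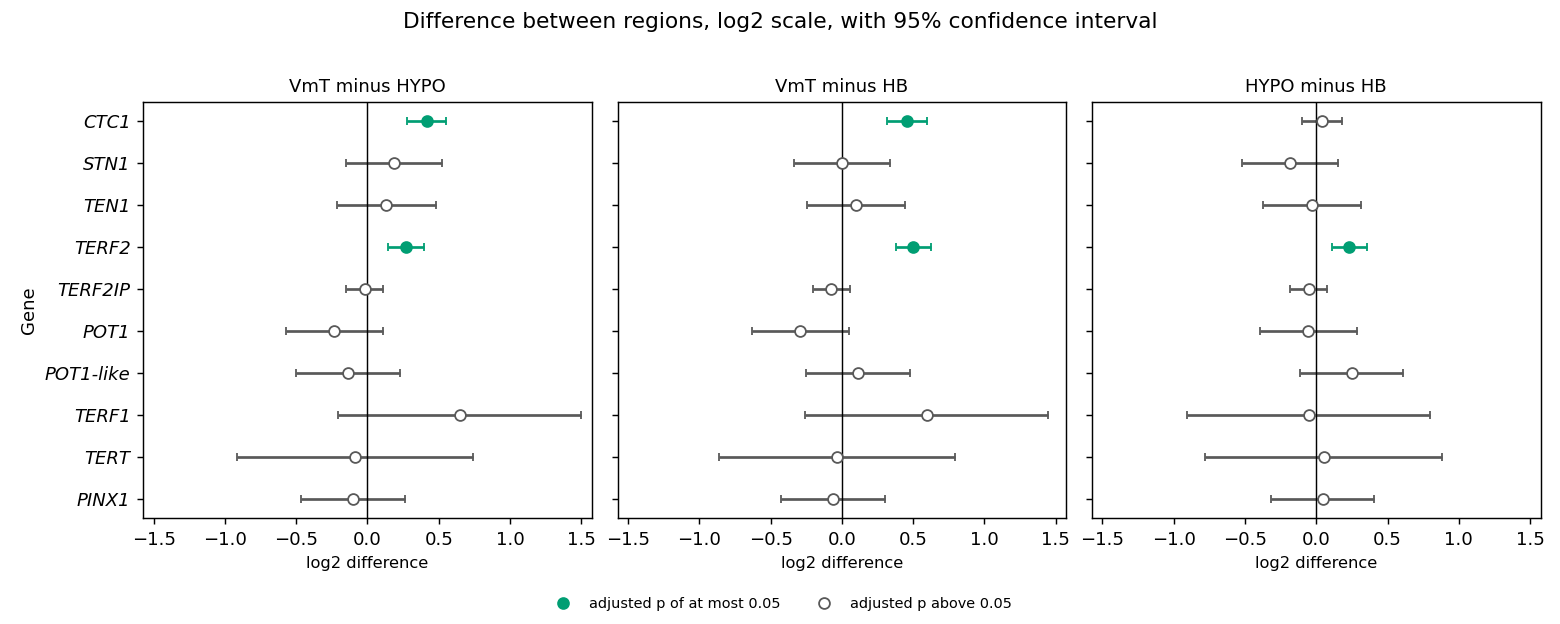
Log2 difference between regions of the 10 genes (horizontal axes, first-named region minus the second), with 95% confidence intervals from limma. CTC1 is higher in the VmT than in both other regions (0.41 and 0.46), TERF2 differs in all 3 pairs (0.27, 0.50 and 0.23), and the other 8 genes have intervals that include 0.

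Transcripts with the pattern most like that of a member were looked for among 11788 transcripts with a mean of at least 50 normalized counts, by Pearson's r of log2 values over the 27 libraries, which share females and regions. For CTC1 they were kelch-like protein 33 (r = 0.88), apoptosis-resistant E3 ubiquitin protein ligase 1 (r = 0.86), alpha-actinin-1 (r = 0.86), sialidase-2 (r = 0.86) and a potassium channel of subfamily G, member 1 (r = 0.85). After removal of group means these 5 fell to 0.29 to 0.55, so most of the likeness lay between groups. For TERF2 it was PRKCA-binding protein (r = 0.94, and 0.84 within groups), for TERF2IP glycoprotein integral membrane protein 1 (0.82, and 0.82 within groups), for STN1 SEC22b (0.79, and 0.82), for POT1 centrosomal protein of 89 kDa (0.80, and 0.77) and for POT1-like nuclear receptor-interacting protein 2 (0.68, and 0.75). Each of these 10 was picked as the highest of many and is given as a description.

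Of 20 highest and lowest places among the 5 INC females (10 members), 5 were held by the same female in all 3 regions. Among the 3 TE females with a settled library in all 3 regions, 7 of 20 were. Neither count was compared with that of other transcripts. Of the INC females, 85757 had the highest STN1 in all 3 regions (134, 124 and 123 normalized counts in the VmT, HYPO and HB). That female also had the lowest TERT in all 3. Female 85899 had the highest POT1-like (107, 113 and 113) and the lowest TEN1 (27.8, 31.2 and 44.8) and TERF2 (707, 614 and 543) in all 3. Around group means, the SD of log2 values was 0.13 for CTC1, 0.11 for TERF2 and 0.12 for TERF2IP, about 2 times the 0.06, 0.06 and 0.05 that counting alone gives. For TERT it was 0.92 against 0.60, and for STN1 0.36 against 0.15.

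Partners of these complexes were described by lists of genes from the wider pathway. Of 10 measured genes of the telomerase particle and its assembly, RUVBL2, a helicase that helps assemble telomerase, was a DEG between stages in the VmT, at 88.4 ± 30.7 normalized counts in INC (SD, n = 5) and 49.8 ± 12.02 in TE (SD, n = 4). The log2 difference was 0.78 (standard error 0.22, limma adjusted p = 0.0486, and 0.0508 with the female as a replicate block). It exceeded that in the HYPO by 1.60 (standard error 0.32, limma adjusted p = 0.00205). RUVBL2 went the other way in the HYPO, at 56.1 ± 9.48 normalized counts in INC and 99.0 ± 10.8 in TE. The log2 difference there was -0.82 (limma adjusted p = 0.0728), not a DEG, so both regions entered the contrast. Of all transcripts 3.53% were DEG between stages in the VmT. The other 9, PINX1 among them, were not DEG in any region, and the median of the 10 in the VmT was -0.05.

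Of 20 measured proteins recruited to telomeres, 3 were DEG between stages in the VmT, all higher in INC, beside 3.53% of all transcripts in either direction. FEN1, a nuclease that trims flaps during replication, averaged 261 ± 24.7 normalized counts in INC and 194 ± 18.6 in TE (log2 difference 0.43, limma adjusted p = 0.0314). BLM, a helicase that unwinds unusual DNA structures, averaged 308 ± 45.6 in INC and 227 ± 27.4 in TE (0.43, adjusted p = 0.0460). DAXX, a histone chaperone, was low, at 9.86 ± 7.29 in INC and 1.67 ± 1.98 in TE (2.12, adjusted p = 0.0185; SD, n = 5 and 4 throughout). The difference in the VmT exceeded that in the HYPO by 0.61 for FEN1 (adjusted p = 0.0192) and 2.68 for DAXX (adjusted p = 0.0236). In the HYPO itself the log2 difference was -0.18 for FEN1 and -0.56 for DAXX, neither a DEG. The stage calls of FEN1, BLM, DAXX and RUVBL2 in the VmT were lost with the score of the thalamus and midbrain in the model, where the log2 difference was 0.38 for FEN1 (adjusted p = 0.256), 0.28 for BLM (0.521), 2.18 for DAXX (0.132) and 0.78 for RUVBL2 (0.238). They were also lost without the VmT libraries of TE females 85674 and 85689 (0.260, 0.536, 0.136 and 0.192). As for CTC1, neither fit can separate stage from score. Over all alternatives FEN1 was called in 33 of 44, BLM in 20 of 44, DAXX in 36 of 43 and RUVBL2 in 12 of 44, always higher in INC. Their log2 differences ranged between 0.36 and 0.48 for FEN1, 0.28 and 0.50 for BLM, 1.07 and 2.71 for DAXX and 0.61 and 0.95 for RUVBL2. The median of the 20 recruited proteins was 0.06.

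No gene was a DEG between stages in the VmT among 6 of DNA polymerase alpha-primase and replication protein A, which CST recruits or resembles, among 24 of double-strand break repair or among 15 of cell division. In the HYPO and the HB no gene of these 5 lists was a DEG between stages. Of all transcripts, 3.53% were DEG between stages in the VmT, 0.514% in the HYPO and 0.00514% in the HB. Counts of 0 in lists of this size are close to those shares. Thus around CTC1, lower in INC, the 4 partner genes that differed in the VmT were all higher in INC, as were 604 of the 687 DEG among all transcripts.

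Between regions, RTEL1, a helicase that opens telomeric loops, showed the largest difference from the HB among the recruited proteins. It averaged 79.0 normalized counts in the VmT, 39.2 in the HYPO and 31.7 in the HB (log2 difference 0.94 against the HYPO, limma adjusted p = 2.89e-04, and 1.22 against the HB, adjusted p = 3.53e-06). Of the 20, RTEL1 was higher and DAXX lower in the VmT than in the HYPO (25.9% of all transcripts in either direction), and 4 were higher and 2 lower than in the HB (43.4%), SLX4, a nuclease scaffold, among the higher (0.37, adjusted p = 0.00451). The difference of DAXX from the HYPO, averaged over both stages, was -1.08, but its means were 9.86 in the VmT and 6.84 in the HYPO of INC females, and 1.67 in the VmT and 10.6 in the HYPO of TE females, so its direction was not the same in both stages. Means in the HB were 7.81 in INC and 10.06 in TE, and the direction against the HB changed likewise. RPA2, the middle subunit of replication protein A, was higher in the VmT than in the HYPO (0.32, adjusted p = 7.48e-04) and the HB (0.29, adjusted p = 9.83e-04), and RPA3 was lower in the VmT than in the HB (-0.27, adjusted p = 0.0443). PARN, which trims the telomerase RNA in human cells, was higher in the VmT than in the HYPO (0.24, adjusted p = 0.0157) and the HB (0.24, adjusted p = 0.0103).

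Of 24 measured repair genes, 2 were called between the VmT and the HYPO, beside 25.9% of all transcripts in either direction. NBN, of the complex that senses broken ends, was higher in the VmT than in the HYPO (303 and 232 normalized counts, log2 difference 0.38, limma adjusted p = 7.65e-04), as was the ubiquitin ligase RNF168 (0.24, adjusted p = 0.0125). Against the HB, 4 of the 24 were higher and 5 lower in the VmT, beside 43.4% of all transcripts in either direction and 17.6% higher. Among the lower were BRCA1 (-0.61, adjusted p = 0.0130) and XRCC5 (-0.44, adjusted p = 0.00103), a Ku subunit that binds DNA ends. Of 15 cell division genes, RRM2 was higher in the VmT than in the HYPO (7.34 and 2.90 normalized counts, log2 difference 1.25, adjusted p = 0.00318) and the HB (1.11, adjusted p = 0.00434). MCM3 was higher in the VmT than in the HB (0.58, adjusted p = 0.0187) and TYMS lower (18.9 and 53.7 normalized counts, -1.55, adjusted p = 1.91e-06). These calls stand beside the same 25.9% (HYPO) and 43.4% (HB) of all transcripts. TYMS, which makes thymidylate for DNA, was the single gene of the 5 lists called between the HYPO and the HB, at 27.7 and 53.7 normalized counts (-0.98, adjusted p = 0.00321). Of all transcripts 12.4% were called between these 2 regions. All 7 list genes called between the VmT and the HYPO lost the call with the score of the thalamus and midbrain in the model, at adjusted p of 0.0842 to 0.345. Log2 differences in that fit were 0.70 for RTEL1, 0.96 for RRM2, 0.26 for RPA2, 0.31 for RNF168, 0.20 for PARN, -1.16 for DAXX and 0.21 for NBN. For TYMS between the HYPO and the HB the difference was -0.90 (adjusted p = 0.103). The score itself differed between these regions, so that fit cannot separate region from score. Standard errors rose in it, for example from 0.071 to 0.108 for RNF168 between the VmT and the HYPO. Against the HB, RPA3 was called in 26 of 43 alternatives and DAXX in 33 of 42.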

How the data were processed

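The 27 libraries are stranded mRNA libraries of paired short reads, each from 1 brain region of 1 female. According to the methods, the authors trimmed reads with Trimmomatic (version 0.36), mapped them to a tree swallow transcriptome with Bowtie2 (2.3.4.1), kept proper pairs with SAMtools (1.3.1), counted them per transcript and dropped transcripts with under 10 reads in total. Whether counting used the strand is not given in the sources used here. The deposited table is named for FPKM, but its values are a depth-normalized signal: in every library 100% of low values were whole multiples of 1 step, within a tolerance of 0.1, so they are normalized counts not scaled by length. Reads were recovered by dividing by the step. One size factor does not correct for a shift in composition, and the level of a transcript depends on its length.

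The table pairs transcripts with titles of protein matches and not with gene symbols, which were assigned here from the titles. Reference sequence was not used here. Groups came from the labels. Members and gene lists were chosen with earlier results of these data known.

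Values were analysed as log2(normalized count + 1) with limma (3.58.1) in R (4.3.3), in 1 fit of 6 region-by-stage groups with an intensity trend, over the 19473 transcripts that reached 1 normalized count in 4 or more libraries. P-values were adjusted by Benjamini-Hochberg over all of them, per contrast. On the recovered reads, edgeR (4.0.16) and DESeq2 (1.42.0) were alternatives, with others for normalization, pseudocount, filter, weights, a replicate block and left-out libraries. All tools were also run on simulated data without correlation within females, and no result here rests on that run. Named were all members, list genes called between stages and, per list, the 3 largest region differences, of which 1 is not reported here. All p-values rest on the spread between these libraries. In the main fit libraries of 1 female were treated as independent. There the spread was pooled over the 6 groups and drawn towards the intensity trend. For genes with few reads, counting error adds to that spread.

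Regions share females, so the female's number pairs their libraries. Over 25 pairs of libraries of 1 female, deviations from group means correlated at -0.22 to 0.38 (median 0.14, over 0.1 in 19). Stages share no female.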

Additional observations from a re-analysis of the deposited data

Results flagged for a closer look

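Of 60 groups of 4 or 5 libraries (10 genes in 6 groups), 4 had a value whose gap to the nearest other, divided by the range, passed Dixon's 95% limit, where chance alone gives about 1 in 20. The VmT library of INC female 85757 stood above its group for TERF2, at 982 normalized counts against 707 to 752 in the other 4 libraries, and for TERF2IP, at 914 against 710 to 734. CTC1 in the HB was 522 normalized counts in INC female 85889, against 456 to 465 in the other 4. TERF1 in the HYPO of TE females was 0.982 normalized counts in female 85674, which is 1 read, and 0 in the other 3 libraries.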

How the results depend on the processing

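Of 390 counts of members called, over 9 comparisons and their alternatives, 357 equalled the main count, many of them as 0 against 0. Agreement was poorest between stages in the VmT, where CTC1 was called in 15 of 44 alternatives. Between the VmT and the HB the count was 3 with quantile normalization, against 2. The count between stages in the VmT, 1 in the main test, was 0 with quantile normalization, without a trend, with array weights, with all transcripts of a title summed, with the score of the thalamus and midbrain in the model, in a fit of the VmT alone and without the VmT libraries of females 85674 and 85689. Leaving out 1 library at a time it was 0 to 2. The adjusted p of CTC1 ranged between 0.00745 (DESeq2) and 0.276 (the VmT alone) over its 44 alternatives. Leaving out any of the 18 HYPO or HB libraries kept its log2 difference of -0.33 and changed its adjusted p to 0.0434 to 0.0582, and the call was lost for 16 of them, all but those of HYPO INC female 85840 and HYPO TE female 85694. It was also lost without 6 of the 9 VmT libraries. With that score the count was 1 between the VmT and the HYPO and 0 between the HYPO and the HB, against 2 and 1. CTC1 in both VmT contrasts and TERF2 between the VmT and the HB were called in all 43 alternatives. With a replicate block for the female, the CTC1 stage difference was -0.33 (adjusted p = 0.0452), and the block changed no call of a member. None of the 6 called differences changed sign. Of 84 differences not called, 37 changed sign in some alternative and 2 passed the threshold in 1 each, TERF2 between stages in the VmT and TERF1 between the VmT and the HB with quantile normalization. With a minimum mean of 50 normalized counts, TEN1, TERF1, TERT and PINX1 were not tested. TERF2 was called between the VmT and the HYPO and between the HYPO and the HB in all alternatives but that score. Depth limits TERF1, at 0 to 8 reads per library, and TERT, at 1 to 42.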
